A study of Homo sapiens with 14 samples.

Results

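The clustered protocadherins are adhesion genes encoded in 3 neighbouring groups on human chromosome 5, named alpha, beta and gamma. They were taken as every gene whose symbol was PCDHA, PCDHAC, PCDHB, PCDHGA, PCDHGB or PCDHGC followed by a number alone, which gave 53 genes, 15 alpha, 16 beta and 22 gamma, of 24461 gene names in each expression table. All 53 were rows of both tables. The members were chosen by symbol and no measured value entered the rule, but the family itself was selected on measured values of these tables, with the results of both comparisons known, so its counts of changed genes describe these libraries and support nothing further. RNA was sequenced from U251MG, an established human glioblastoma cell line with a wild-type genotype in every label. Radioresistant U251MG cells had received 30 daily fractions of 2 Gy of X-rays, 60 Gy in all, and were set against control U251MG cells, 3 libraries each. Radioresistant U251MG cells with a short hairpin against IFI16 (shIFI16), an interferon-induced DNA sensor, were set against radioresistant U251MG cells with the control hairpin shNC, again 3 libraries each, so that both hairpin groups carry the radiation history. ATAC-seq, which marks open chromatin, gave 1 library of radioresistant cells and 1 of control cells. The labels name a single hairpin for IFI16 and do not say whether the radioresistant cells are 1 clone, how long after irradiation they were taken, or whether replicates were separate cultures, so the spread between libraries may be technical.

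Clustered protocadherins are single-pass membrane proteins whose cadherin repeats bind the same isoform on an opposing cell, and in neurons each cell switches on its own few isoforms, which lets its branches tell self from non-self. Each variable first exon has its own promoter. Alpha and gamma first exons are spliced to constant exons shared by the whole cluster, which encode a common cytoplasmic tail, while each beta gene is a single exon without that tail. Promoter choice depends on CTCF and cohesin, on DNA methylation and on a conserved sequence element around the letters CGCT. The so-called C-type genes at the end of the alpha and gamma clusters, PCDHAC1, PCDHAC2, PCDHGC3, PCDHGC4 and PCDHGC5, are regulated apart from the rest in mouse neurons.

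The 3 clusters lie on the plus strand of chromosome 5 (GRCh38.p14) with alpha at chr5:140786140-141012347, beta at chr5:141051374-141249365 and gamma at chr5:141330514-141512975. RefSeq promoter windows of 300 bases, 250 before to 50 after a start, were matched for 47 of the 53 genes, 52 windows in all; PCDHA3, PCDHA13, PCDHB6, PCDHB11, PCDHGA12 and PCDHGC5 had none. CGCT, searched on both strands, was present in 51 of the 52 windows (98.1%, with PCDHA9 the exception), against 70.0% of all 35116 RefSeq windows. A match to these letters anywhere in 300 bases, on either strand, does not by itself identify the conserved element. A consensus string for the CTCF core was found, on either strand, in 0 of the 52 windows, against 12.6% of all RefSeq windows. CTCF binding was not measured. The 3 windows shown first belong to genes with different patterns in radioresistant against control cells. Of the radioresistant and control libraries, PCDHAC2 lay above 1e-06 TPM in the radioresistant ones alone, PCDHGB2 fell, and PCDHGC3 carried most of the gamma signal. Capitals mark CGCT on the gene's strand, and the windows are at chr5:140966226-140966525, chr5:141359886-141360185 and chr5:141475716-141476015, plus strand.
PCDHAC2: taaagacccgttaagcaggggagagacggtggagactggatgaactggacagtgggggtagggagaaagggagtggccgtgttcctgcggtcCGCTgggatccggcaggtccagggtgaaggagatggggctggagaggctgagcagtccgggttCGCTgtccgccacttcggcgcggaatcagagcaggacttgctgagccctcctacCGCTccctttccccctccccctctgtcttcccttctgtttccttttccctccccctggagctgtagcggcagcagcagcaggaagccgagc
PCDHGB2: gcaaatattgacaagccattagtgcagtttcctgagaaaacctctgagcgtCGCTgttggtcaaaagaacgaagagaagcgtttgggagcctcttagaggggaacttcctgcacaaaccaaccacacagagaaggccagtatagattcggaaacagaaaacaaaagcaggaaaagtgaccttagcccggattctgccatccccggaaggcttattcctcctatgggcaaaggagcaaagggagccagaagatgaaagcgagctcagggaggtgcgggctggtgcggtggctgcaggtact
PCDHGC3: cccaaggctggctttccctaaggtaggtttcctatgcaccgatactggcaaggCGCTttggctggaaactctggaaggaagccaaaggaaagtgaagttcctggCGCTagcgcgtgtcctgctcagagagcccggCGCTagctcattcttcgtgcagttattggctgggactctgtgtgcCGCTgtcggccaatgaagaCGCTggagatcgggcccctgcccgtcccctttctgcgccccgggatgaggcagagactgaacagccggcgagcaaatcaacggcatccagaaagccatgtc

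A further 7 promoters are shown as the 44 bases around the CGCT that lies 38 to 64 bases before the start, to compare members that fell strongly, members that fell less and members that did not pass the test. They are at chr5:141172562-141172605 (PCDHB7), chr5:141192295-141192338 (PCDHB10), chr5:141223259-141223302 (PCDHB14), chr5:141182306-141182349 (PCDHB16), chr5:141364103-141364146 (PCDHGA5), chr5:141373831-141373874 (PCDHGA6) and chr5:141402710-141402753 (PCDHGA9), plus strand.
PCDHB7: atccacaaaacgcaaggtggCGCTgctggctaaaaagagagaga
PCDHB10: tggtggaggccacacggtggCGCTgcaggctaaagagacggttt
PCDHB14: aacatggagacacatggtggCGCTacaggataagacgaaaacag
PCDHB16: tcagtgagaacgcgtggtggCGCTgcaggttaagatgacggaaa
PCDHGA5: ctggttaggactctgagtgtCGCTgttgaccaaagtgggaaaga
PCDHGA6: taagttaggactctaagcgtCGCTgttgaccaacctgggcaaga
PCDHGA9: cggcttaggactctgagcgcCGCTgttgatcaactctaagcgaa

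The letters around CGCT were shared most widely in the beta cluster. GGTGGCGCT was found in 13 of 14 beta windows, in no alpha or gamma window and in 0.501% of all windows, on either strand. CGCTGTTGA was found in 5 of 25 gamma windows, 1 beta window, no alpha window and 0.120% of all windows. Both longer strings contain CGCT and were chosen after the windows had been read. PCDHGA5 and PCDHGA6, which did not pass the test, carried the same core letters as PCDHGA9, which fell. The windows held a median of 7.5 CG dinucleotides (range 2 to 27), against 14 in all windows, and the highest counts of the alpha cluster were in the C-type genes PCDHAC1 (27) and PCDHAC2 (15).

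Expression was deposited as TPM, a length-scaled level that sums to the same total in every library, in a table for each comparison. Because TPM keeps no read depth, the depth is unknown and no counting interval is given. Pearson correlations between replicates, on log2(TPM + 1), were 0.990 to 0.992 in radioresistant cells, 0.975 to 0.993 in control cells, 0.990 to 0.992 in shIFI16 cells and 0.992 to 0.993 in shNC cells. IFI16 stood at 7.43 ± 0.634 TPM in shIFI16 cells and 131 ± 7.69 TPM in shNC cells, which matches the labels, and at 267 ± 36.1 TPM in radioresistant cells and 63.7 ± 12.2 TPM in control cells (mean ± SD, n = 3 each, here and below). Genes that reached 1 TPM in 3 or more libraries of their table, which has 6, were tested with limma on log2(TPM + 1), and a call is a Benjamini-Hochberg adjusted p under 0.05 over all genes tested. A fold change on this scale understates the change of low genes. In radioresistant against control cells, 2220 genes were called higher and 3542 lower with TPM as deposited. After median-ratio scaling, which moved the median log2 fold change of all genes tested to 0.01, against -0.11 as deposited, the split was 2977 higher and 2919 lower. In shIFI16 against shNC cells, 2088 genes were called higher and 2052 lower, with a median log2 fold change of 0.02.

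In radioresistant cells the summed level of the beta and gamma clusters was lower, and that of the weakly expressed alpha cluster was higher. The beta genes together gave 42.2, 39.0 and 29.1 TPM in the 3 radioresistant libraries, against 105, 115 and 107 TPM in the 3 control libraries, so that the radioresistant mean was 33.7% of the control mean. The gamma genes together gave 185, 169 and 138 TPM in radioresistant cells, against 224, 241 and 203 TPM in control cells, 73.5% of the control mean. The groups did not overlap for either sum, and radioresistant replicate 3 was the lowest of the 3 radioresistant libraries for every cluster. Without PCDHGC3, the gamma sum was 39.8 ± 9.01 TPM in radioresistant cells and 83.2 ± 11.6 TPM in control cells. The alpha genes gave 4.25, 4.50 and 3.47 TPM in radioresistant cells, against 1.08, 1.49 and 0.887 TPM in control cells. PCDHAC2, at 2.44 ± 0.141 TPM in radioresistant cells, made up most of the difference, and the alpha sum without it was 1.63 ± 0.613 TPM in radioresistant cells and 1.15 ± 0.306 TPM in control cells, and these groups overlapped. These sums are descriptions without a test. In bulk RNA, fewer cells that express a gene and less RNA per cell cannot be told apart.

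**Figure D1:**
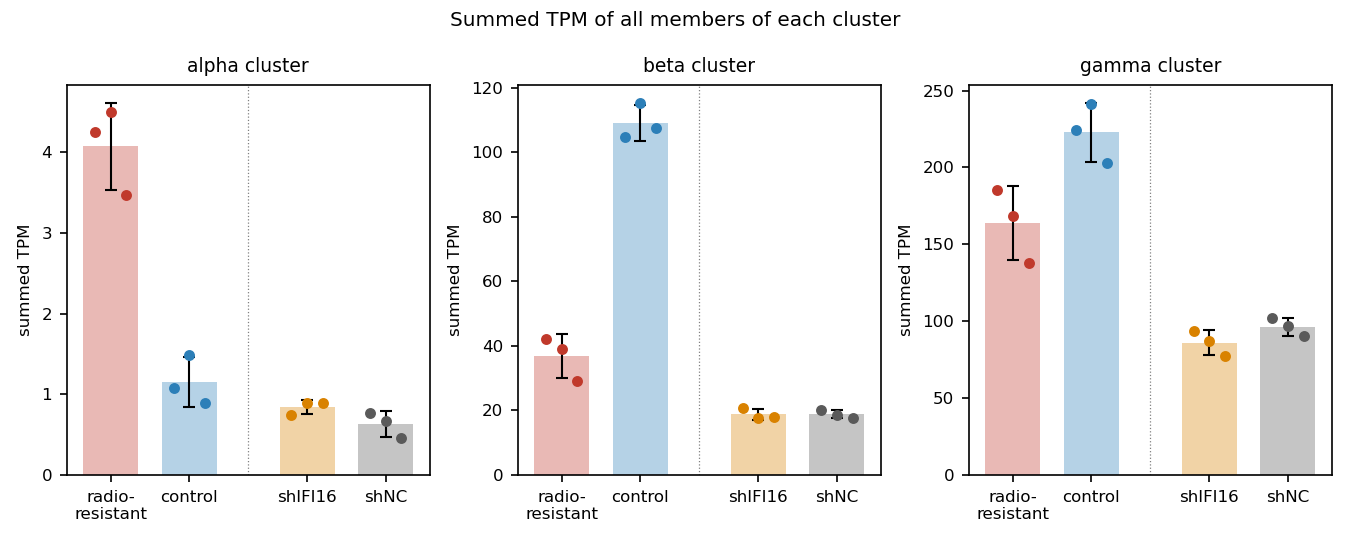
Summed TPM of the alpha, beta and gamma protocadherin genes in each library (points), with the mean and SD of each group (bars), for radioresistant and control cells and for shIFI16 and shNC cells, each pair from its own table. The beta sum of radioresistant cells lies between 29.1 and 42.2 TPM, below every control library, while the beta sums of shIFI16 and shNC cells overlap.

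Of the 53 genes, 26 could be tested in radioresistant against control cells; 19 were lower, 3 higher and 4 did not pass. Among all 13127 genes tested, 27.0% were lower and 16.9% higher, 43.9% in either direction. The median log2 fold change of the 26 was -1.08, against -0.11 for all genes tested. For 7 of the 19 lower genes every radioresistant library was under 1 TPM, so they entered the test through the control libraries and their direction was set by the filter. The other 12 reached 1 TPM in at least 1 library of both groups. Over all 53 genes, without a filter, the radioresistant libraries lay below every control library for 25 genes (2 alpha, 14 beta and 9 gamma) and above every control library for 7 (5 alpha and 2 gamma). The same non-overlap held for 25.2% and 17.8% of the 19250 genes with any value above 0.

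All 12 beta genes tested were lower in radioresistant cells, with control means 1.87 to 9.69 times the radioresistant means. Of all genes tested, 27.0% were lower. The filter left 4 of the 12 no other direction, since they were under 1 TPM in every radioresistant library. The other 8 reached 1 TPM in both groups. PCDHB7 had 1.86, 1.66 and 0.691 TPM in radioresistant cells, against 12.2, 15.3 and 13.3 TPM in control cells. Its log2 fold change of -2.63 (SE 0.205, limma adjusted p = 4.9e-06) was the furthest from 0 among the 26 genes tested. PCDHB10 had 3.11, 2.80 and 2.35 TPM in radioresistant cells, against 15.2, 16.2 and 13.9 TPM in control cells, a log2 fold change of -2.10 (SE 0.143, limma adjusted p = 1.8e-06). In neither gene did the groups come near each other. PCDHB9 had 6.39, 6.54 and 4.03 TPM in radioresistant cells, against 14.2, 16.3 and 15.0 TPM in control cells (log2 fold change -1.30, limma adjusted p = 1.9e-04).

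The beta genes with the highest levels in radioresistant cells were PCDHB14, PCDHB2 and PCDHB16. PCDHB14 had 10.4, 8.25 and 6.44 TPM in radioresistant cells, against 14.6, 16.1 and 16.4 TPM in control cells, a log2 fold change of -0.85 (SE 0.165, limma adjusted p = 0.0020). PCDHB2 had 8.11, 6.64 and 5.15 TPM in radioresistant cells, against 13.3, 16.7 and 17.2 TPM in control cells (log2 fold change -1.15, limma adjusted p = 4.1e-04). Control cells therefore held PCDHB2, PCDHB7, PCDHB9, PCDHB10, PCDHB14 and PCDHB16 at similar means of 13.6 to 15.8 TPM, whereas in radioresistant cells the same 6 genes spread from 1.40 to 8.37 TPM. PCDHB16 had 6.51, 7.0 and 5.59 TPM in radioresistant cells, against 15.2, 14.1 and 14.1 TPM in control cells (log2 fold change -1.07, limma adjusted p = 1.2e-04). PCDHB15 had 1.25, 1.44 and 1.22 TPM in radioresistant cells, against 4.67, 4.14 and 4.50 TPM in control cells (log2 fold change -1.24, limma adjusted p = 7.1e-05). PCDHB3 had 1.28, 1.68 and 0.955 TPM in radioresistant cells, against 2.93, 3.31 and 2.40 TPM in control cells (log2 fold change -0.76, limma adjusted p = 0.0051).

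PCDHB8, PCDHB11, PCDHB12 and PCDHB13 are the beta genes that entered the test through control cells alone. PCDHB8 averaged 0.302 ± 0.0776 TPM in radioresistant cells and 2.55 ± 0.167 TPM in control cells, and PCDHB13 averaged 0.587 ± 0.185 TPM in radioresistant cells and 3.43 ± 0.705 TPM in control cells. PCDHB11 averaged 0.488 ± 0.0628 TPM in radioresistant cells and 2.21 ± 0.516 TPM in control cells, and PCDHB12 averaged 0.777 ± 0.153 TPM in radioresistant cells and 1.98 ± 0.107 TPM in control cells. Of the 4 beta genes not tested, PCDHB5 and PCDHB6 lay below control in every library. PCDHB4 overlapped between the groups, and PCDHB1 was listed at 0 in 5 of the 6 libraries. Beta genes are near copies of each other and how reads matching several genes were assigned is not given in the sources used here, so the split of signal among neighbours is uncertain.

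**Figure D2:**
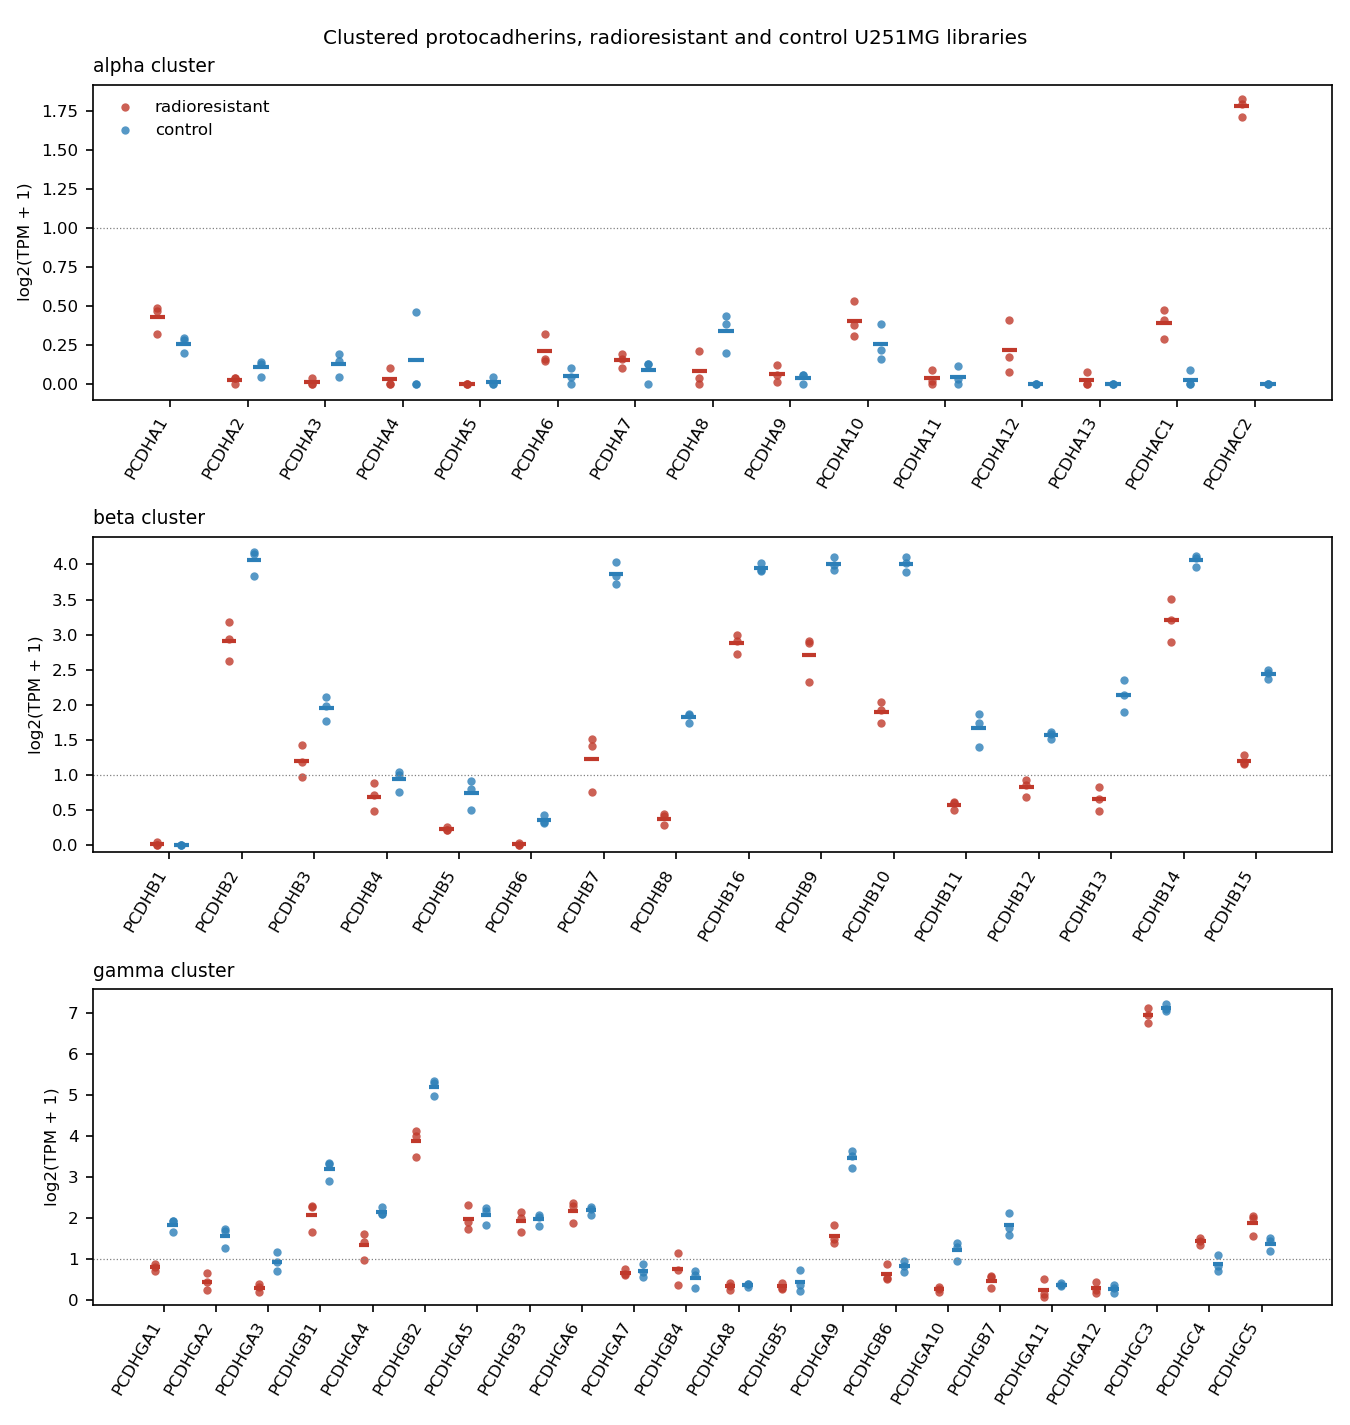
Level of all 53 clustered protocadherin genes in radioresistant (red) and control (blue) cells, in chromosomal order within each cluster, as log2(TPM + 1) in each library, with group means as ticks and 1 TPM as a dotted line. Every tested beta gene has its radioresistant points below its control points, while PCDHGA5, PCDHGB3, PCDHGA6 and PCDHGC3 overlap. For 4 of these 12 beta genes, under 1 TPM in every radioresistant library, the filter set the direction.

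In the gamma cluster, 7 of the 13 genes tested were lower in radioresistant cells, 2 were higher and 4 did not pass. Of all genes tested, 27.0% were lower and 16.9% higher, so 2 of 13 higher is near the share of all genes. For 3 of the 7 lower genes the filter set the direction. PCDHGB2, the most abundant gamma gene after PCDHGC3, had 16.6, 15.0 and 10.3 TPM in radioresistant cells, against 38.7, 39.8 and 30.6 TPM in control cells, a log2 fold change of -1.34 (SE 0.179, limma adjusted p = 2.1e-04). PCDHGA9 had 1.81, 2.58 and 1.64 TPM in radioresistant cells, against 10.5, 11.5 and 8.35 TPM in control cells, a log2 fold change of -1.89 (SE 0.175, limma adjusted p = 1.6e-05). Both genes lay below control in every library. PCDHGB1 had 3.82, 3.93 and 2.21 TPM in radioresistant cells, against 8.97, 9.24 and 6.57 TPM in control cells (log2 fold change -1.12, limma adjusted p = 0.0013). PCDHGA4 had 1.68, 2.08 and 0.986 TPM in radioresistant cells, against 3.87, 3.32 and 3.28 TPM in control cells (log2 fold change -0.82, limma adjusted p = 0.0046). The remaining 3 lower genes passed the filter through control cells alone. PCDHGA1 averaged 0.752 ± 0.0945 TPM in radioresistant cells and 2.60 ± 0.355 TPM in control cells, PCDHGA2 averaged 0.387 ± 0.202 TPM in radioresistant cells and 2.01 ± 0.507 TPM in control cells, and PCDHGB7 averaged 0.404 ± 0.149 TPM in radioresistant cells and 2.60 ± 0.717 TPM in control cells. PCDHGA10 was under the filter, with 0.205 ± 0.0425 TPM in radioresistant cells and 1.35 ± 0.365 TPM in control cells, and its groups did not overlap.

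Along the chromosome, lower and overlapping gamma genes formed runs, a pattern seen after the values were known and not tested. The first 6 genes of the cluster, PCDHGA1, PCDHGA2, PCDHGA3, PCDHGB1, PCDHGA4 and PCDHGB2, all lay below control in every radioresistant library. In the next 7, from PCDHGA5 to PCDHGB5, the groups overlapped. PCDHGA5 had 4.02, 2.78 and 2.32 TPM in radioresistant cells, against 3.54, 3.81 and 2.56 TPM in control cells (log2 fold change -0.10, 95% interval -0.53 to 0.33). PCDHGB3 had 3.00, 3.49 and 2.19 TPM in radioresistant cells, against 3.09, 3.24 and 2.5 TPM in control cells (-0.03, -0.41 to 0.35), and PCDHGA6 had 3.95, 4.21 and 2.67 TPM in radioresistant cells, against 3.26, 3.86 and 3.72 TPM in control cells (-0.01, -0.39 to 0.36). These intervals leave room for changes in either direction up to their bounds. PCDHGA9, PCDHGA10 and PCDHGB7, further along, were again below control in every library, with PCDHGB6 overlapping among them. All gamma transcripts share their constant exons, so the level of a given first exon depends on how shared reads were divided.

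None of the C-type genes was called lower in radioresistant cells. PCDHGC3, which in mouse cortical neurons binds Axin1 and restrains Wnt signalling, had 139.95, 124 and 108 TPM in radioresistant cells, against 137, 149 and 133 TPM in control cells. The groups overlapped and the log2 fold change of -0.17 (95% interval -0.44 to 0.09, limma adjusted p = 0.26) did not pass the test. PCDHGC3 made up 75.6, 73.5 and 78.7% of all gamma TPM in radioresistant cells, against 61.0, 61.8 and 65.5% in control cells. PCDHGC4, the isoform that mouse interneurons need to survive, had 1.74, 1.89 and 1.54 TPM in radioresistant cells, against 1.15, 0.651 and 0.790 TPM in control cells (log2 fold change 0.55, SE 0.160, limma adjusted p = 0.017). PCDHGC5 had 3.03, 3.18 and 1.97 TPM in radioresistant cells, against 1.88, 1.71 and 1.30 TPM in control cells (log2 fold change 0.50, SE 0.179, limma adjusted p = 0.045). Both were above control in every library, by a small margin. The PCDHGC4 call was lost without control replicate 2 (adjusted p = 0.081) or radioresistant replicate 2 (0.059). The PCDHGC5 call was lost without control replicate 2 (0.089) or 3 (0.088), without radioresistant replicate 1 (0.14) or 2 (0.14), with no filter (0.071) and with a pseudocount of 0.1 TPM (0.054).

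PCDHAC2, which mouse serotonergic neurons use to space their axons, had 2.55, 2.28 and 2.47 TPM in radioresistant cells. In all 3 control libraries its values were under 1e-06 TPM and were set to 0. It was called higher (limma adjusted p = 6.0e-06), although it entered the test through the radioresistant libraries alone, and no fold change is given against a group set to 0. All alpha transcripts share their constant exons too, so the level of a given alpha gene depends on how shared reads were divided. PCDHAC2 made up 60.1, 50.7 and 71.3% of the alpha sum in radioresistant cells. PCDHAC1, the neighbouring C-type gene, had 0.328, 0.391 and 0.220 TPM in radioresistant cells, against 0.0628, 0 and 0 TPM in control cells. No other alpha gene reached more than 0.450 TPM in any of the 6 libraries. Of the 90 alpha values in this table, 31 in 13 genes lay above 0 but under 1e-06 TPM, the smallest 1.01e-263, and were set to 0. No beta or gamma value was of that kind, whereas every alpha value given here as 0 was, the control values of PCDHAC2 among them. With the filter lowered to 0.1 TPM, 43 of the 53 genes were tested, of which 23 were lower and 4 higher, against 23.9% and 15.4% of all 15780 genes tested (39.3% in either direction); PCDHAC1 was the added higher gene.

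**Figure D3:**
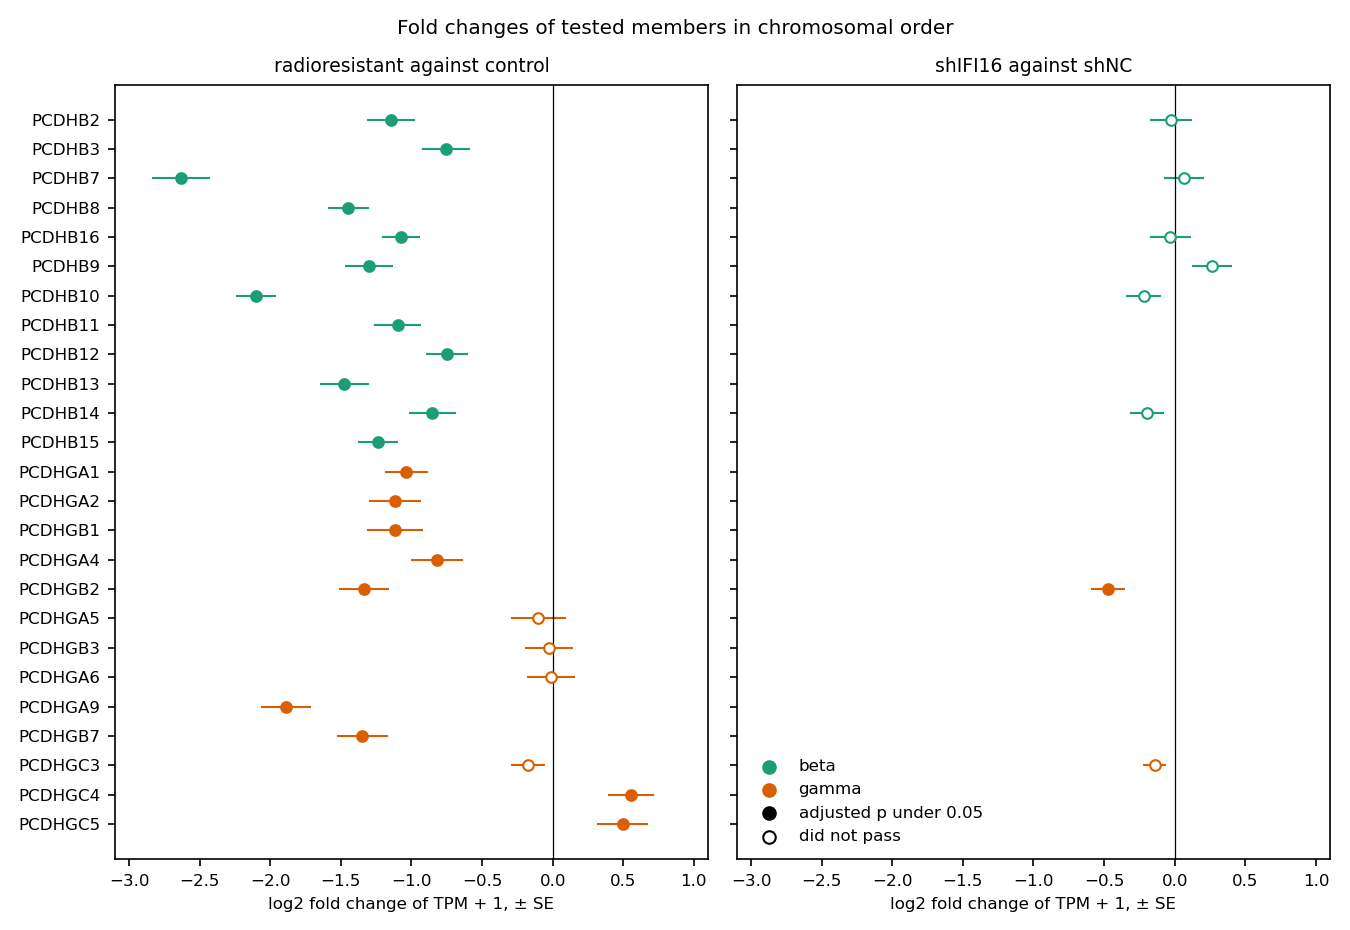
Log2 fold change on the log2(TPM + 1) scale, with its SE as a bar, for each tested beta and gamma gene in chromosomal order, for radioresistant over control cells (left) and shIFI16 over shNC cells (right), with filled points for adjusted p under 0.05. All 12 beta points on the left lie below 0, and for 4 of them the filter set the direction. Those of PCDHGA5, PCDHGB3 and PCDHGA6 lie at -0.10 to -0.01, and those of PCDHGC4 and PCDHGC5 lie above 0. On the right, PCDHGB2 is the filled point. PCDHAC2 is left out because its control values, all under 1e-06 TPM, were set to 0.

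When IFI16 was knocked down in radioresistant cells, PCDHGB2 was the protocadherin called. Of the 53 genes, 8 passed the 1 TPM filter, 1 was lower, 0 were higher and 7 did not pass, where 16.3% of all 12567 genes tested were lower and 16.6% higher (32.9% in either direction). With 8 genes tested, that count is near the share of all genes and says nothing particular about the family. PCDHGB2 had 10.6, 8.89 and 9.52 TPM in shIFI16 cells, against 15.6, 14.5 and 11.5 TPM in shNC cells, a log2 fold change of -0.47 (SE 0.119, limma adjusted p = 0.0063). Every shIFI16 library lay below every shNC library. PCDHGB2 was lower in shIFI16 than in shNC cells and lower in radioresistant than in control cells, in comparisons that share no library. Whether IFI16 bears on either difference was not tested. PCDHGC3 had 73.7, 71.4 and 61.0 TPM in shIFI16 cells, against 78.8, 75.1 and 73.2 TPM in shNC cells (log2 fold change -0.14, 95% interval -0.31 to 0.03, limma adjusted p = 0.19). It made up 78.6, 81.6 and 78.8% of all gamma TPM in shIFI16 cells, against 77.1, 77.7 and 80.9% in shNC cells.

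The 6 beta genes tested had log2 fold changes of -0.22 to 0.26 in shIFI16 against shNC cells, and none passed. PCDHB10 had 2.72, 2.51 and 2.83 TPM in shIFI16 cells, against 3.42, 3.33 and 3.10 TPM in shNC cells (log2 fold change -0.22, 95% interval -0.48 to 0.04, limma adjusted p = 0.20); its groups did not overlap. PCDHB14 had 5.20, 4.45 and 4.16 TPM in shIFI16 cells, against 5.03, 6.0 and 5.20 TPM in shNC cells (-0.20, -0.46 to 0.06). PCDHB9 had 2.82, 2.17 and 2.23 TPM in shIFI16 cells, against 2.22, 1.68 and 1.63 TPM in shNC cells (0.26, -0.04 to 0.56). The intervals of PCDHB10, PCDHB14 and PCDHB9 all include 0. PCDHB7, the beta gene with the largest fall in radioresistant cells, had 1.40, 1.32 and 1.11 TPM in shIFI16 cells, against 1.15, 1.11 and 1.27 TPM in shNC cells (0.06, -0.23 to 0.36). PCDHB2 averaged 2.86 ± 0.679 TPM in shIFI16 cells and 2.90 ± 0.393 TPM in shNC cells, and PCDHB16 averaged 2.06 ± 0.347 TPM in shIFI16 cells and 2.13 ± 0.362 TPM in shNC cells. The beta sum was 18.8 ± 1.83 TPM in shIFI16 cells and 18.8 ± 1.17 TPM in shNC cells, and the gamma sum was 86.2 ± 8.26 TPM in shIFI16 cells and 96.4 ± 5.88 TPM in shNC cells, with overlapping groups in both.

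**Figure D4:**
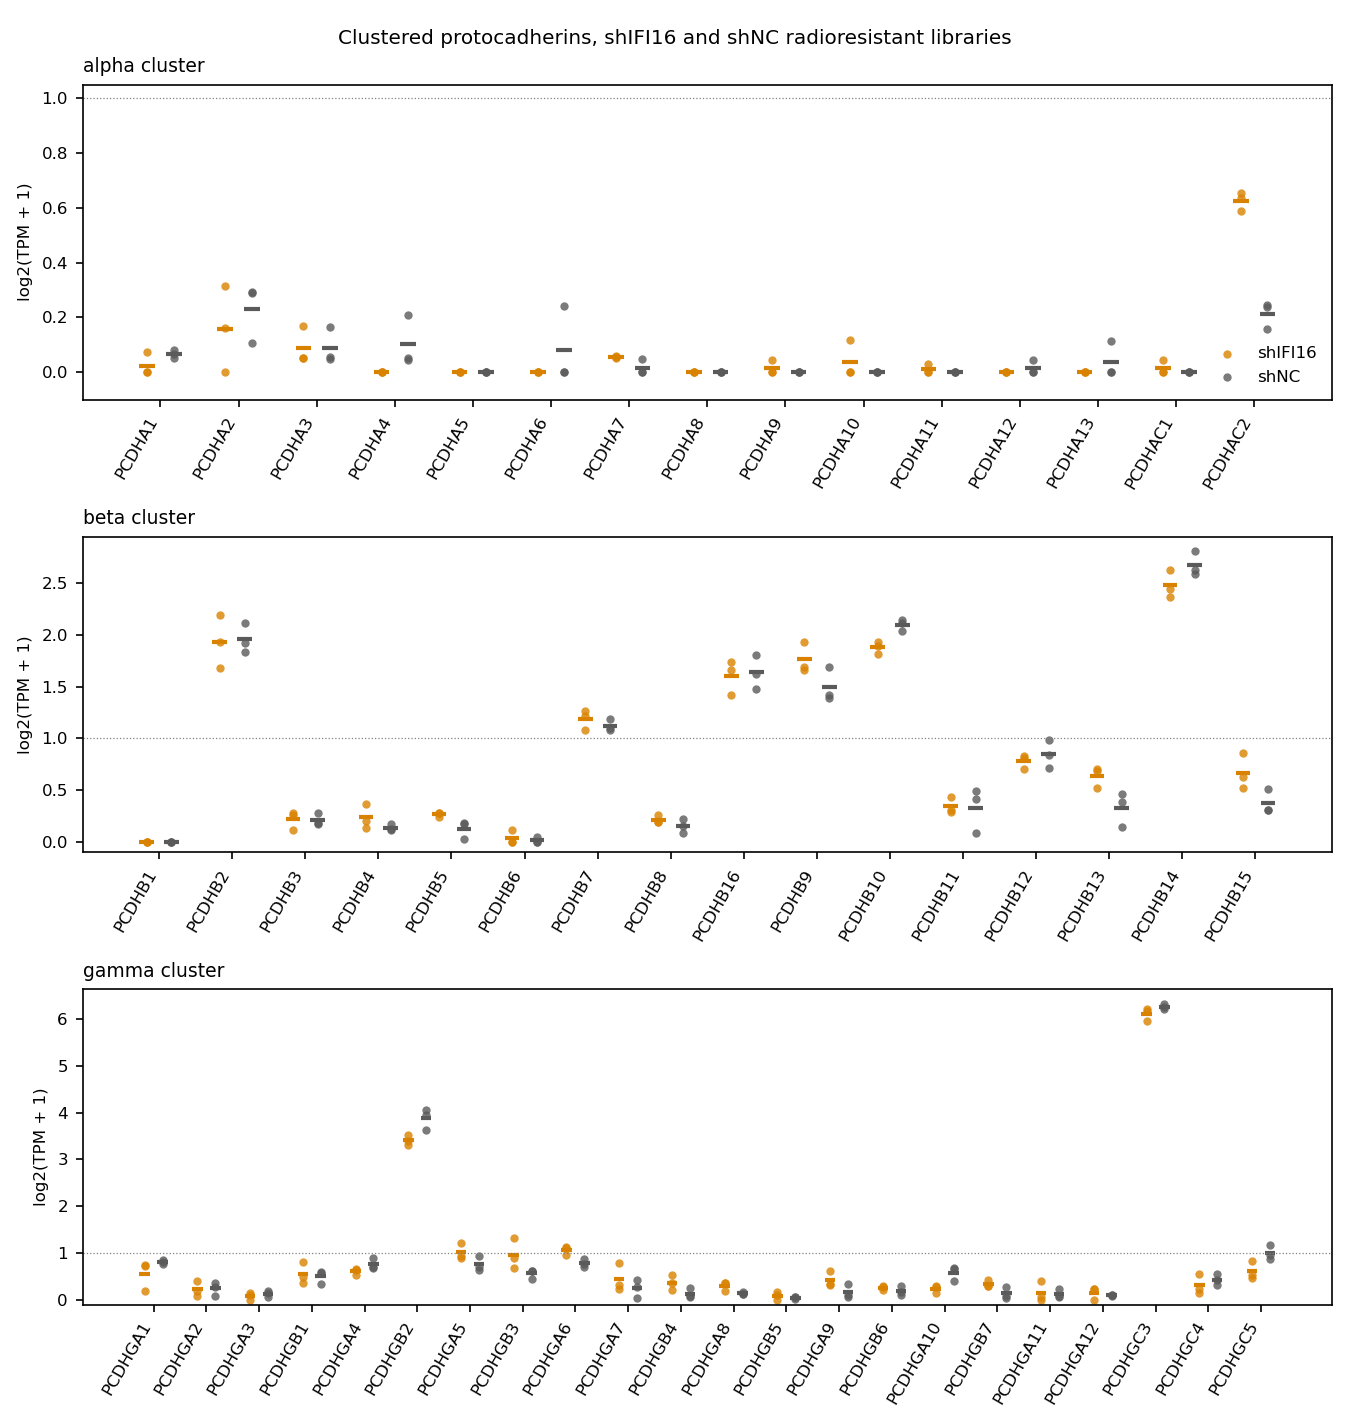
Level of all 53 clustered protocadherin genes in shIFI16 and shNC cells, both radioresistant, in chromosomal order within each cluster, as log2(TPM + 1) in each library, with group means as ticks and 1 TPM as a dotted line. Of the 8 genes tested, PCDHGB2 and PCDHB10 have shIFI16 points below all shNC points, and the other 6 overlap.

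With no filter or a lower one, the counts of members that differed between the hairpin groups were near or under the share of all genes. Over all 53 genes, the shIFI16 libraries lay below every shNC library for 7 and above for 9, where the same held for 16.6% and 18.7% of the 18489 genes with any value above 0. With the filter at 0.1 TPM, 35 of the 53 were tested, 3 were lower and 1 higher, against 13.8% and 14.0% of all 15012 genes tested (27.9% in either direction). PCDHAC2 was the higher gene, with 0.553, 0.573 and 0.505 TPM in shIFI16 cells, against 0.185, 0.181 and 0.115 TPM in shNC cells (log2 fold change 0.41, limma adjusted p = 0.011). PCDHGC5 had 0.775, 0.382 and 0.453 TPM in shIFI16 cells, against 1.26, 0.947 and 0.830 TPM in shNC cells (limma adjusted p = 0.045), and PCDHGA10 had 0.206, 0.224 and 0.104 TPM in shIFI16 cells, against 0.614, 0.574 and 0.323 TPM in shNC cells (limma adjusted p = 0.042). At the 1 TPM filter these 3 genes were not tested. PCDHGA6 averaged 1.09 ± 0.134 TPM in shIFI16 cells and 0.725 ± 0.107 TPM in shNC cells, and PCDHGA5 averaged 1.04 ± 0.257 TPM in shIFI16 cells and 0.700 ± 0.190 TPM in shNC cells; both reached 1 TPM in too few libraries for the filter.

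Open chromatin in the clusters was called in the radioresistant library alone, in a list more than 5 times as long as the control one. The deposited lists held 12877 ATAC summits for radioresistant cells and 2454 for control cells. Within the 3 clusters there were 3 summits in radioresistant cells, all in the gamma cluster, and 0 in control cells. The summit at chr5:141360076 lies inside the PCDHGB2 window printed above, 60 bases before the start used for that window but 82 bases after the annotated gene start, so its side depends on the start used. The summit at chr5:141475867 lies 99 bases before the start of PCDHGC3. The remaining summit, at chr5:141494069, lies 4988 bases after the start of PCDHGC5. The 2 genes with a summit within 1 kb of their start, PCDHGB2 and PCDHGC3, are the 2 most abundant gamma genes in both groups. That is 2 of 53 genes, against 17.9% of all RefSeq windows in the radioresistant library, and 0 of 53, against 3.39%, in the control library. The authors' scores of the 3 summits, 2.52, 3.18 and 3.54, exceeded those of only 12.8%, 29.3% and 37.6% of the summits in the same list. Limiting each list to its 2454 highest-scoring summits, or to scores of at least 10, left 0 in the clusters. PCDHGB2 RNA was lower in the radioresistant cells that had the summit. With 1 library per group there is no test.

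Genes known to act on the clusters were read against the 43.9% of all genes that were called in radioresistant against control cells. Of 12 CTCF and cohesin genes, 0 were higher and 1 lower in radioresistant cells, with a median log2 fold change of -0.20. CTCF, which holds the promoters and enhancers of the clusters together in loops, averaged 53.7 ± 1.85 TPM in radioresistant cells and 62.3 ± 4.67 TPM in control cells and did not pass the test (limma adjusted p = 0.15). NIPBL, the cohesin loader, was the lower gene, with 21.4 ± 2.79 TPM in radioresistant cells and 30.8 ± 6.06 TPM in control cells (limma adjusted p = 0.033). Of 19 methylation and silencing genes, 2 were higher and 2 lower, with a median of -0.04. The DNA methyltransferase DNMT3A averaged 7.06 ± 1.39 TPM in radioresistant cells and 15.6 ± 1.26 TPM in control cells (log2 fold change -1.05, limma adjusted p = 3.5e-04), and the demethylating enzyme TET1 averaged 1.25 ± 0.318 TPM in radioresistant cells and 2.44 ± 0.638 TPM in control cells. The histone methyltransferase EZH2 averaged 104 ± 11.8 TPM in radioresistant cells and 70.1 ± 5.72 TPM in control cells, and the corepressor TRIM28 averaged 556 ± 18.7 TPM in radioresistant cells and 405 ± 49.1 TPM in control cells. In shIFI16 against shNC cells, 5 of 12 CTCF and cohesin genes and 7 of 19 methylation and silencing genes were higher and 0 were lower, where 16.6% of all genes were higher and 16.3% lower. SUZ12, a Polycomb subunit, averaged 71.4 ± 8.69 TPM in shIFI16 cells and 50.8 ± 3.14 TPM in shNC cells, and the cohesin subunit STAG2 averaged 98.8 ± 12.1 TPM in shIFI16 cells and 76.1 ± 2.90 TPM in shNC cells.

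Of 20 genes tested beside the clusters on chromosome 5, 1 was higher, 4 were lower and 15 did not pass in radioresistant cells, where 16.9% of all genes were higher and 27.0% lower, with a median log2 fold change of -0.11, that of all genes tested. TAF7, a transcription factor subunit gene that lies between the beta and gamma clusters, averaged 165 ± 14.1 TPM in radioresistant cells and 220 ± 17.0 TPM in control cells (log2 fold change -0.42, limma adjusted p = 0.011). HDAC3, a histone deacetylase gene past the gamma cluster, averaged 83.5 ± 6.36 TPM in radioresistant cells and 122 ± 3.73 TPM in control cells (log2 fold change -0.54, limma adjusted p = 0.0021). Among these neighbours, 3 of 21 were higher and 2 lower in shIFI16 against shNC cells, where 16.6% of all genes were higher and 16.3% lower. The list of neighbours includes PCDH1 and PCDH12, which are also on the list of protocadherins outside the clusters, so these lists are not separate.

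Protocadherins outside the clusters were also low in radioresistant cells. Of 8 tested, 7 were lower, with a median log2 fold change of -1.31, and PCDH10 did not pass. Among all genes tested in that comparison, 27.0% were lower and 16.9% higher. PCDH20 averaged 6.79 ± 2.28 TPM in radioresistant cells and 96.4 ± 8.73 TPM in control cells (log2 fold change -3.69, limma adjusted p = 3.9e-07), and PCDH17 averaged 31.3 ± 3.24 TPM in radioresistant cells and 90.1 ± 8.22 TPM in control cells (-1.50, limma adjusted p = 7.6e-06). In shIFI16 against shNC cells, 2 of 7 were higher and 0 lower, where 16.6% of all genes were higher and 16.3% lower. PCDH20 averaged 8.06 ± 1.16 TPM in shIFI16 cells and 5.20 ± 0.285 TPM in shNC cells. Classical cadherins and catenins were more often lower, with 4 of 15 higher and 10 lower in radioresistant cells and a median log2 fold change of -0.60. In shIFI16 against shNC cells, 5 of 16 were higher and 7 lower, with a median of -0.12. CDH10 averaged 4.19 ± 1.21 TPM in radioresistant cells and 79.5 ± 17.7 TPM in control cells, while CDH11 averaged 38.4 ± 2.83 TPM in radioresistant cells and 9.84 ± 1.34 TPM in control cells. Of 20 genes downstream of the protocadherin tail, 9 were lower and 1 higher in radioresistant cells. CYFIP2, part of the WAVE complex that nucleates actin, averaged 5.54 ± 1.00 TPM in radioresistant cells and 19.6 ± 1.75 TPM in control cells, and 6.62 ± 0.872 TPM in shIFI16 cells and 1.98 ± 0.0853 TPM in shNC cells.

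Summed markers of neural cells were lower in radioresistant than in control cells, and those of astrocytes and the oligodendrocyte lineage also differed between the hairpin groups. Summed over 15 neuron markers, the level was 476 to 548 TPM in radioresistant cells and 1617 to 1736 TPM in control cells; 3 of the 6 tested were lower, 0 higher, and 1 of the 15 was listed at 0 in every library. NEFL, a neurofilament gene, accounted for most of the control sum but not of the radioresistant one, with 211 ± 29.1 TPM in radioresistant cells and 1277 ± 42.3 TPM in control cells. Summed over 8 astrocyte markers, the level was 229 to 258 TPM in radioresistant cells and 4445 to 4590 TPM in control cells, and all 5 tested were lower. The 9 oligodendrocyte-lineage markers summed to 9.51 to 15.7 TPM in radioresistant cells and 98.1 to 139 TPM in control cells, of which PDGFRA was the gene tested, and the 6 immune markers to 17.4 to 22.1 TPM in radioresistant cells and 14.5 to 20.1 TPM in control cells, with 3 of them listed at 0 in every library. In shIFI16 cells the neuron sum was 416 to 461 TPM and in shNC cells 453 to 462 TPM. The astrocyte sum was 227 to 250 TPM in shIFI16 cells and 168 to 189 TPM in shNC cells, and the oligodendrocyte-lineage sum was 5.60 to 7.66 TPM in shIFI16 cells and 1.37 to 1.45 TPM in shNC cells. The 4 epithelial markers summed to 172 to 183 TPM in shIFI16 cells and 65.1 to 66.7 TPM in shNC cells, and to 39.4 to 55.5 TPM in radioresistant cells and 50.9 to 71.9 TPM in control cells. The immune sum was 14.0 to 16.8 TPM in shIFI16 cells and 37.2 to 40.2 TPM in shNC cells. In each comparison 5 of the 6 immune markers were under 1 TPM in all 6 libraries, so this sum is mainly the level of 1 gene. The 4 endothelial markers summed to 11.7 to 14.2 TPM in shIFI16 cells and 6.02 to 6.64 TPM in shNC cells, and to 4.66 to 5.07 TPM in radioresistant cells and 12.4 to 14.2 TPM in control cells. Likewise, 2 of the 4 endothelial and 2 of the 4 epithelial markers were under 1 TPM in all 6 libraries of each comparison. All 6 marker sums differed without overlap between the groups of at least 1 comparison, but several rest on 1 or 2 genes. The 8 interferon-response genes listed beside the members were all higher in radioresistant cells, and in shIFI16 cells 1 was higher and 4 were lower. Among all genes tested, 16.9% were higher and 27.0% lower in radioresistant cells. In shIFI16 cells the shares were 16.6% and 16.3%, in that order. Whether any level of the marker and interferon genes bears on the protocadherins was not tested.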

How the data were processed

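RNA-seq was done on 12 libraries and ATAC-seq on 2. Per the submitters' processing notes, reads were trimmed with Trim Galore 0.6.6 and processed with TopHat, Cufflinks 2.2.1 and featureCounts (RNA) or with Bowtie2 2.2.5, SAMtools 1.10 and MACS2 2.1.4 (ATAC), on hg38; the sources used here do not give the strand setting, the annotation or the treatment of reads matching several genes. The authors deposited TPM in 2 tables of 24489 rows, each column summing to 1000000, although the labels call them counts; 28 date-like names (0.115 to 0.190% of TPM) were left out. Column codes were read as control and radioresistant by the prefixes of the ATAC files, and as shNC and shIFI16 by the table. The deposited ATAC files give a −log10 q-value or p-value score per summit, unlabelled in the file, from 1 library each.

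Values under 1e-06 TPM were set to 0, a choice made after seeing the data. limma 3.58.1 (R 4.3.3, trend and robust, two-sided) was fitted to log2(TPM + 1) of all genes, each table alone, with the filter of 1 TPM in 3 of 6 libraries and Benjamini-Hochberg adjustment over all genes tested, and was tested on simulated data. Named members were those averaging at least 1 TPM in a group; of each other list, up to 4 genes with the smallest p and those needed to say what did not change. Members and lists were chosen with earlier results of these data known. Promoters and gene positions came from RefSeq (GRCh38.p14). Alternatives covered pseudocount, filter, scaling, variance model, replicate block and leaving out each library. Figures and tables used Python 3.11.15. Libraries numbered alike in 2 groups were treated as unpaired.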

Additional observations from a re-analysis of the deposited data

How the results depend on the processing

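Of the 22 protocadherins called in radioresistant against control cells, the 19 lower ones and PCDHAC2 kept their direction and call under all 13 alternatives. For 7 of the 19 and for PCDHAC2, every library of 1 group was under 1 TPM. The filter set their direction and most alternatives reused it, so their stability adds no support. The other 12 lower genes reached 1 TPM in both groups. PCDHGC4 and PCDHGC5 did not keep their call, as given with their values. The count of members called was 20 to 27, and 20 to 22 when 1 library was left out. In shIFI16 against shNC cells, 1 member was called and 1 in every fit without 1 library, but 4 with the filter at 0.1 TPM and 3 with none, since more members were then tested. The log2 ratio of the beta sums in shIFI16 over shNC cells, -0.01, ranged from -0.0896 to 0.0412 without 1 library. Of the members that did not pass in radioresistant against control cells, PCDHGA5 changed sign with quantile normalization (log2 fold change 0.0346), PCDHGB3 with median-ratio scaling (0.0652) and quantile normalization (0.0945), and PCDHGA6 likewise (0.0820 and 0.123); without 1 library they ranged from -0.268 to 0.0290, -0.137 to 0.109 and -0.111 to 0.141, in that order, and the cause was not tested. In shIFI16 against shNC cells, leaving out 1 library gave a range of -0.154 to 0.101 for PCDHB2 and -0.112 to 0.0629 for PCDHB16. ATAC summits in the gamma cluster of the radioresistant library numbered 3, but 0 with a score of at least 10 and 0 in lists of equal length; members with a summit near a start numbered 2, but 0 and 0 in those lists and 4 within 5 kb. The log2 ratio of the alpha sums over genes past the filter could not be computed. PCDHAC2, which alone passed in radioresistant against control cells, was set to 0 in control cells, and no alpha gene passed in the hairpin comparison.

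With the replicate block, 22 members were called in radioresistant against control cells and 1 in shIFI16 against shNC cells. Over all genes the block gave 5572 calls, against 5762 without it, and 5610, against 4140. Deviations of libraries with the same number correlated at -0.38, 0.24 and 0.08 in the radiation comparison and at 0.22, 0.09 and 0.03 in the hairpin comparison, and not every library correlated best with its own number, so the numbers were not taken to pair the libraries. TPM without read depth limits what can be said of members under 1 TPM, which are most alpha genes.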
